A study of Danio rerio with 11 samples.

Results

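Genes for translation factors and aminoacyl-tRNA synthetases were described across 11 arrays of whole zebrafish embryos, of which 5 came from embryos kept with oil emulsion and 6 from controls. Members were genes with a single platform symbol that starts with eif or eef, or that joins 1 or 2 letters to ars, ars1 or ars2. A gene also needed a log2 signal of at least 6 in at least 1 array, and the probe set of highest mean stood for it. The array carried 83 such genes, and 76 of them passed the signal filter, out of 6466 gene symbols among the 9803 probe sets tested. The other 7 (cars2, eef1a1l3, eef1akmt2, eef2a.1, eif4e1b, fars2 and pars2) reached at most 4.41 to 5.70 and were not tested. By role the 76 genes comprised 14 cytosolic and 2 mitochondrial tRNA synthetases, 9 elongation factors, 1 elongation related kinase, 8 genes of eIF2 and eIF2B, 14 of eIF3, 14 of eIF4, 9 other initiation factors and 5 regulators of initiation.

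Each array measured total RNA pooled from the 30 embryos of 1 cup, which held 100 ml of medium. In exposed cups 250 mg of emulsion lay on the bottom, gathered on the Gulf coast at Gulfport, Fort Morgan or Perdido Key, and exposure lasted 48 h up to collection. Gulfport emulsion was given from 0 to 48, from 24 to 72 and from 48 to 96 h post fertilization (hpf), with 1 array for each window. Fort Morgan and Perdido Key emulsions were given from 24 to 72 hpf only, with 1 array each. Controls, kept in medium without emulsion, numbered 1, 3 and 2 arrays at 48, 72 and 96 hpf. The labels name no strain, and they do not say whether replicate controls came from separate cups or spawnings, so the p-values rest on variation between arrays that could be technical. Values are log2 signals normalized by the authors, and the number of arrays limits the precision.

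Protein synthesis starts when initiation factors bring the initiator tRNA, the small ribosomal subunit and the capped mRNA together: eIF2 carries the tRNA, eIF2B recharges eIF2 with GTP, eIF3 binds the small subunit and eIF4 factors bind and unwind the mRNA. Elongation factors then deliver charged tRNAs (eEF1A, recharged by eEF1B) and move the ribosome along (eEF2), while each tRNA synthetase joins 1 amino acid to its tRNAs. In vertebrate cells several cytosolic synthetase genes belong to the amino acid response, in which phosphorylated eIF2 raises translation of the transcription factor ATF4. The symbols gars1 and kars1 are counted here as cytosolic, although in vertebrates the genes for glycyl- and lysyl-tRNA synthetase also supply mitochondria.

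Whole-array facts that touch the results were few. Array medians lay between 6.37 and 6.42. The lower quartile of signal split the arrays into a higher set of 5 (the first and the third control at 72 hpf, the Gulfport and Fort Morgan arrays at 72 hpf and the first control at 96 hpf) and a lower set of 6, at a value of 4.8. Markers of skeletal muscle had nearly equal list means in all 11 arrays, between 13.76 and 13.95, so this tissue of a whole embryo was present throughout. Markers of the exocrine pancreas had a list mean of 5.62 in the control at 48 hpf, 8.18 to 8.84 in those at 72 hpf and 12.38 to 12.71 in those at 96 hpf.

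Most members moved little. The median range over the 11 arrays was 0.47 for the members and 0.65 for all probe sets tested, and 6 of 76 members (7.89%) ranged over more than 1 log2 unit, against 23.1% of all. The 3 steadiest were elongation genes with high signal: eef1a1l1 (an eEF1A gene) ranged over 0.12, eef2b (eEF2) over 0.13 and eef1g (a subunit of eEF1B) over 0.18. The 2 widest were eEF1A genes too, eef1a1b with 2.26 and eef1a1a with 2.23.

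In controls the eEF1A gene eef1a1a rose at both age steps, and 5 of the 76 members were called between 48 and 72 hpf. With limma (Benjamini-Hochberg over the 9803 probe sets, threshold 0.05), 17.9% of all probe sets were called between these ages, 9.23% higher and 8.71% lower at 72 hpf. The members called were eef1a1a and eef1a1b, both higher, and eif4g3a, eef1e1 and eif3m, which fell. Of these, eef1a1b passed the signal filter only through the 96 hpf arrays, where it is highest, so its age difference is part of how it came to be tested and is given as a description. Counts of members called at either age step under this filter include eef1a1b. At an unadjusted p under 0.05 there were 12 members, against 31.4% of all probe sets. The median difference of the members was -0.12, against -0.03 for all probe sets, and 21 of 76 lay above 0, against 46.2% of all. The count of 5 was 2 without the second or the third control at 72 hpf and 3 without either control at 96 hpf. In whole embryos, fewer cells of a type and less RNA per cell cannot be told apart.

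Between 72 and 96 hpf 5 members were again called, against 9.6% of all probe sets (6.29% higher and 3.31% lower at 96 hpf). The genes eef1a1a, eif4ebp3l and rars1 rose and eif4enif1 fell. The other, eef1a1b, was higher, which is again a description, since it met the filter only at 96 hpf. At an unadjusted p under 0.05 there were 11 members, against 26.2% of all. The count of 5 was 2 without either control at 96 hpf, 3 without the second control at 72 hpf and 3 with the signal filter at log2 7. The median difference was 0.02 for the members and -0.04 for all probe sets, with 46 of 76 and 43.5% above 0. Over both steps, 32 members were lower at 72 than at 48 hpf and higher again at 96 hpf, 23 were lower at each step, 14 were higher at each step and 7 were higher and then lower, counting every difference whatever its size.

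**Figure D1:**
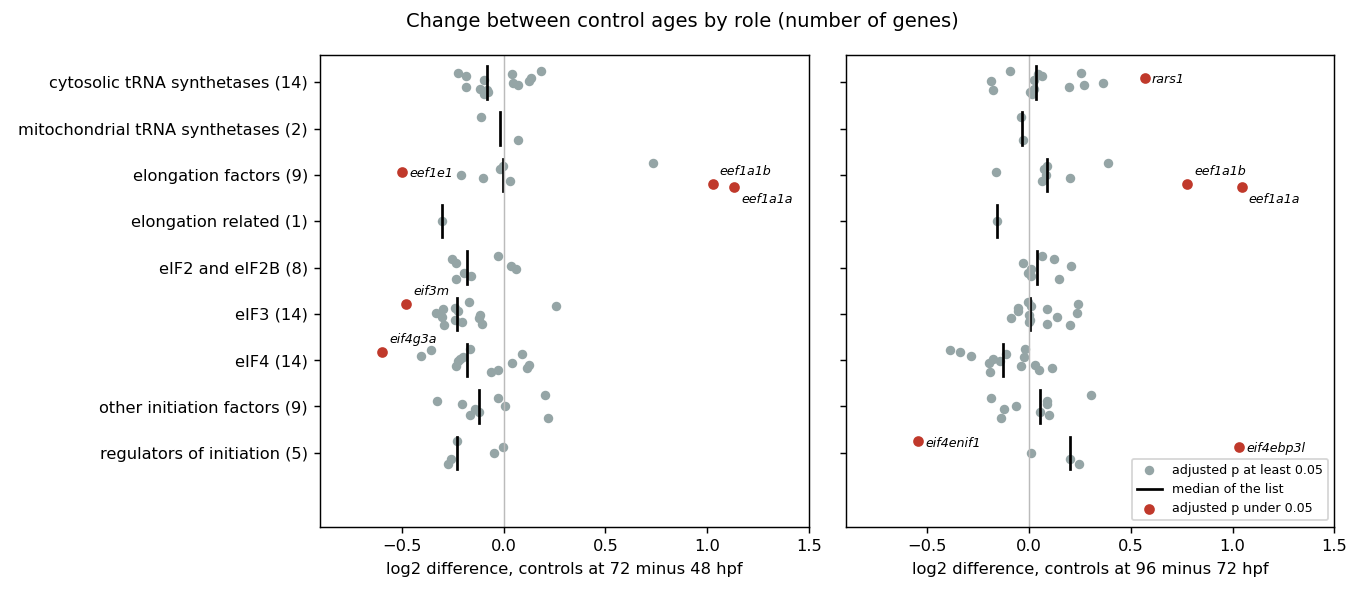
Log2 difference of each of the 76 genes between control ages (left, 72 minus 48 hpf; right, 96 minus 72 hpf), by role, with the number of genes in brackets. Each point is a gene, black lines are list medians and red points passed the adjusted threshold. The genes eef1a1a and eef1a1b lie at 0.78 or more in both panels. The red of eef1a1b is a description only, since it met the signal filter only at 96 hpf. In the left panel 13 of the 14 eIF3 points lie below 0.

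The elongation factors held the widest moves. The gene eef1a1a encodes a form of eEF1A, which carries charged tRNA to the ribosome. It measured 6.72 in the control at 48 hpf, 7.57, 7.99 and 7.99 in the controls at 72 hpf, and 8.89 and 8.90 in those at 96 hpf. No control of one age overlapped with those of another. It rose by 1.13 (SE 0.18; 2.19-fold) between 48 and 72 hpf, with a limma adjusted p of 0.00546, and by 1.04 (SE 0.15; 2.06-fold) between 72 and 96 hpf, with an adjusted p of 0.00367. The gene passed at both steps whichever control was left out, where each age kept 1 (highest adjusted p 0.0360).

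Its paralog eef1a1b was dim at the start, with 4.44 at 48 hpf, 5.46, 5.48 and 5.46 at 72 hpf, and 6.24 and 6.25 at 96 hpf in controls. Its replicates differed by less than 0.03 within an age (SD 0.01 at 72 hpf, n = 3), and the ages did not overlap. The 48 hpf value lay under that array's lower quartile of 4.75, where array signals generally understate differences. The differences were 1.03 (SE 0.12) between 48 and 72 hpf and 0.78 (SE 0.10) between 72 and 96 hpf. In all arrays at 48 and 72 hpf the gene was below the filter of log2 6, which it met only at 96 hpf, so the filter favoured a gene with this rise and no test of it is given.

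The third eEF1A gene, eef1a1l1, measured 13.85 to 13.97 in all 11 arrays. It differed by 0.03 (95% interval -0.25 to 0.31) between 48 and 72 hpf and by 0.06 (-0.16 to 0.28) between 72 and 96 hpf in controls. The brightest probe set of any array reached 14.62 to 14.79, and whether signals this near the top still respond in proportion was not tested. The other abundant elongation genes were as level: eef2b measured 13.17 to 13.30 and eef1g 12.98 to 13.16 over all arrays, and neither passed at either step.

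The eEF2-like gene eef2l2 measured 8.83 at 48 hpf, 9.21, 9.67 and 9.81 at 72 hpf, and 10.04 and 9.86 at 96 hpf in controls. The ages did not overlap, but the difference of 0.73 (SE 0.22) between 48 and 72 hpf gave an adjusted p of 0.0586 and that of 0.39 (SE 0.18) between 72 and 96 hpf one of 0.211. It passed at the first step without the first control at 72 hpf (0.91, adjusted p 0.0103) and with a variance trend and robust moderation (adjusted p 0.0446). Its other 2 probe sets were also higher at each later age.

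The gene eef1e1, whose mammalian product is a scaffold of the complex of several tRNA synthetases, went the other way. It measured 9.03 at 48 hpf, 8.55, 8.62 and 8.44 at 72 hpf, and 8.40 and 8.34 at 96 hpf in controls. It fell by 0.50 (SE 0.13; limma adjusted p 0.0367) between 48 and 72 hpf, a call lost without any 1 of the controls at 72 or 96 hpf (adjusted p 0.0552 to 0.0720). The remaining elongation genes, eef1b2 and eef1db (both of eEF1B) and eef2k, the kinase that inactivates eEF2, did not pass at either step.

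**Figure D2:**
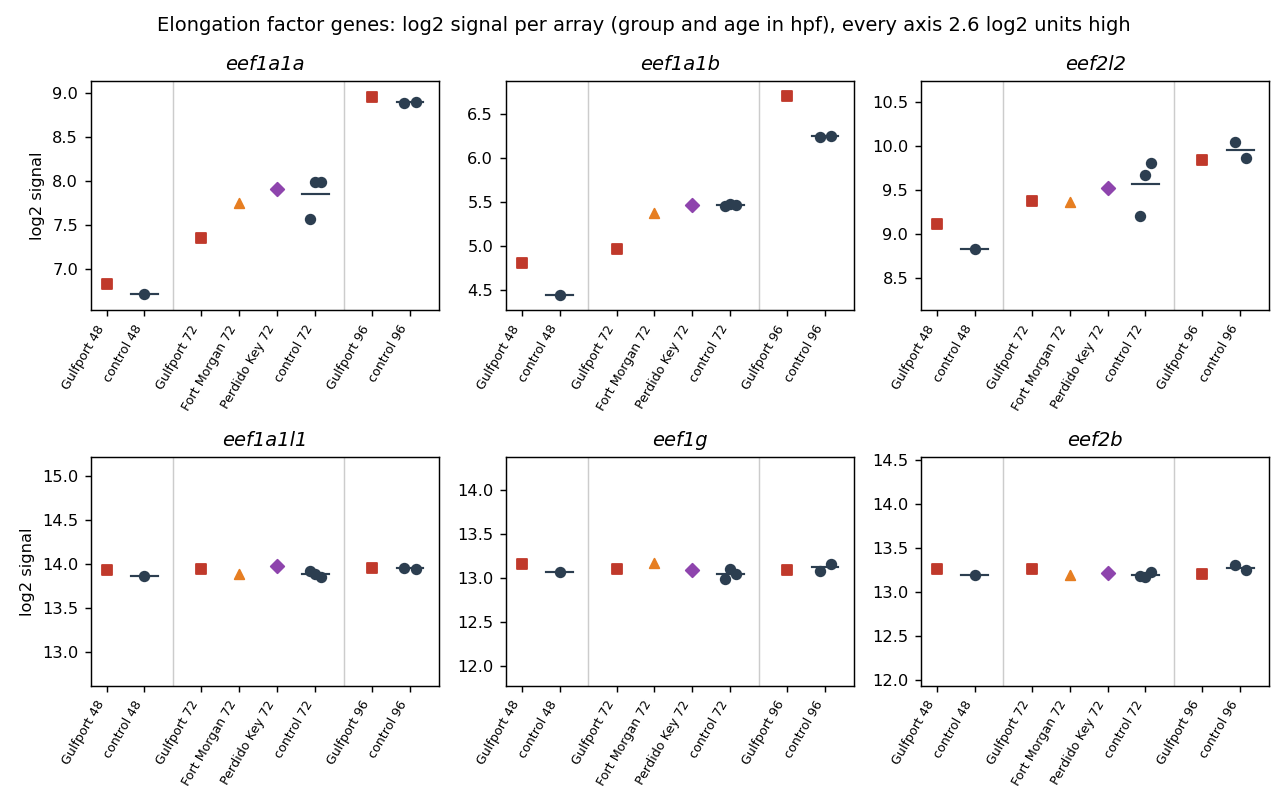
Log2 signal of 6 elongation factor genes in each of the 11 arrays, by group and age, with exposed arrays to the left of the controls of their age and bars at control means. Each axis spans the same height; eef1a1a, eef1a1b and eef2l2 stand higher at each later age, while eef1a1l1, eef1g and eef2b are nearly level.

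Of the 45 initiation factors, 2 were called between 48 and 72 hpf, both lower (8.71% of all probe sets were called lower). Below 0 lay 35 (median -0.17) and above it 10, against 46.2% of all above. All these differences share the 1 control at 48 hpf, so age and a deviation of that array cannot be told apart. Of the 14 eIF3 genes, 1 lay above 0, against 46.2% of all probe sets, and the median was -0.23, against -0.03. Their tests stood at or below the background: 1 of 14 was called (17.9% of all) and 4 of 14, or 28.6%, had an unadjusted p under 0.05 (31.4% of all). The one that passed, eif3m, measured 10.72 at 48 hpf, 10.13, 10.29 and 10.30 at 72 hpf, and 10.53 and 10.43 at 96 hpf in controls, so that the 72 hpf values were the lowest. It fell by 0.48 (SE 0.14; limma adjusted p 0.0452), a call lost without any 1 of the controls at 72 or 96 hpf (adjusted p 0.0652 to 0.0806) or without the signal filter (0.0531). The exception was eif3jb, at 0.26 (adjusted p 0.37). Between 72 and 96 hpf the eIF3 median was 0.01, with 9 of 14 above 0 and none called (limma; 0 at an unadjusted p under 0.05).

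Among the eIF4 genes, eif4g3a (a scaffold that joins the cap-binding factor, the helicase and the ribosome) measured 7.50 at 48 hpf, 6.98, 6.93 and 6.81 at 72 hpf, and 6.65 and 6.48 at 96 hpf in controls. On its other 2 probe sets the 72 and 96 hpf controls overlapped (differences of -0.01 and -0.24), while on this one every later age lay below every earlier one. It fell by 0.60 (SE 0.14; limma adjusted p 0.0236) between 48 and 72 hpf, and the difference of -0.34 (SE 0.11) between 72 and 96 hpf had an adjusted p of 0.0982. The first call was lost without the second or the third control at 72 hpf (0.0530 and 0.0515), and with its 3 probe sets averaged (-0.39; adjusted p 0.140). Its relatives eif4g3b and eif4g2a were lower at both steps without passing, at -0.36 and -0.39 for eif4g3b and at -0.41 and -0.28 for eif4g2a. In all, 11 of the 14 eIF4 genes lay below 0 between 72 and 96 hpf (median -0.13) and 3 above, against 43.5% of all probe sets above. None was called (limma; 9.6% of all), and 3 of 14 had an unadjusted p under 0.05 (26.2% of all). The same 9 of the 14 lay below 0 at both steps.

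The 8 genes of eIF2 and eIF2B were not called at either age step (limma; 0 at an unadjusted p under 0.05 at both), with medians of -0.18 and 0.04. The 9 other initiation factors (eif1axa, eif1axb, eif2a, eif2d, eif5, eif5a, eif5a2, eif5b and eif6) were not called either (1 at an unadjusted p under 0.05 at each step). Their extremes between 48 and 72 hpf were eif5a2 at -0.33 and eif1axa at 0.22. Between 72 and 96 hpf they were eif5b at -0.19 and eif6 at 0.30. At the first step the second probe set of eif5a2 lay at -0.12 and that of eif1axa at -0.02. At the second step the second probe set of eif5b lay at 0.06.

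Of the 5 regulators of initiation, 2 were called, both between 72 and 96 hpf. The gene eif4ebp3l belongs to the 4E-BP family, proteins that hold the cap-binding factor eIF4E away from the scaffold. It measured 7.87 at 48 hpf, 7.49, 8.13 and 7.99 at 72 hpf, and 8.99 and 8.81 at 96 hpf in controls, the 96 hpf pair standing above all others. It rose by 1.03 (SE 0.19; 2.04-fold; limma adjusted p 0.0133) between 72 and 96 hpf, a call lost without either control at 96 hpf (0.0877 and 0.0608). The other family members were steadier, with eif4ebp1 at 0.20 (adjusted p 0.23) and eif4ebp2 at 0.01 (adjusted p 0.97) over the same step. The gene eif4enif1, whose mammalian product binds eIF4E and represses its mRNAs, measured 6.90 at 48 hpf, 6.55, 6.75 and 6.70 at 72 hpf, and 6.21 and 6.04 at 96 hpf in controls. It fell by 0.55 (SE 0.11; limma adjusted p 0.0226) between 72 and 96 hpf, a call lost in 4 of the 6 fits that left out 1 control (highest adjusted p 0.164). The kinase gene eif2ak3 (PERK, which phosphorylates eIF2 under stress of the endoplasmic reticulum) measured 6.06 to 6.71 in controls and did not pass at either step.

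Of the 14 cytosolic synthetases, 1 was called between control ages: rars1, for arginine. It measured 7.69 at 48 hpf, 7.82, 7.62 and 8.02 at 72 hpf, and 8.40 and 8.38 at 96 hpf in controls. It rose by 0.57 (SE 0.13; limma adjusted p 0.0349) between 72 and 96 hpf, lost in 4 of the 6 fits that left out 1 control (highest adjusted p 0.158). The other 13 lay between -0.22 (wars1) and 0.18 (yars1) at the first step and between -0.19 (nars1) and 0.36 (mars1) at the second, with medians over all 14 of -0.08 and 0.03. At an unadjusted p under 0.05 there were 0 of 14 at the first step and 3 of 14 at the second, against 26.2% of all probe sets at the second: rars1, mars1 and kars1. The methionine gene mars1 measured 7.47 and 7.46 at 96 hpf, against 6.99, 7.11 and 7.19 at 72 hpf (0.36, SE 0.11; limma adjusted p 0.0732), and the lysine gene kars1 10.31 and 10.24, against 9.93, 10.04 and 10.04 (0.27, SE 0.10; limma adjusted p 0.132). In both the 96 hpf controls stood above all those at 72 hpf. The mitochondrial rars2 and wars2 were dim, at 5.46 to 6.11 over the 11 arrays, and differed by at most 0.11 between control ages.

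**Figure D3:**
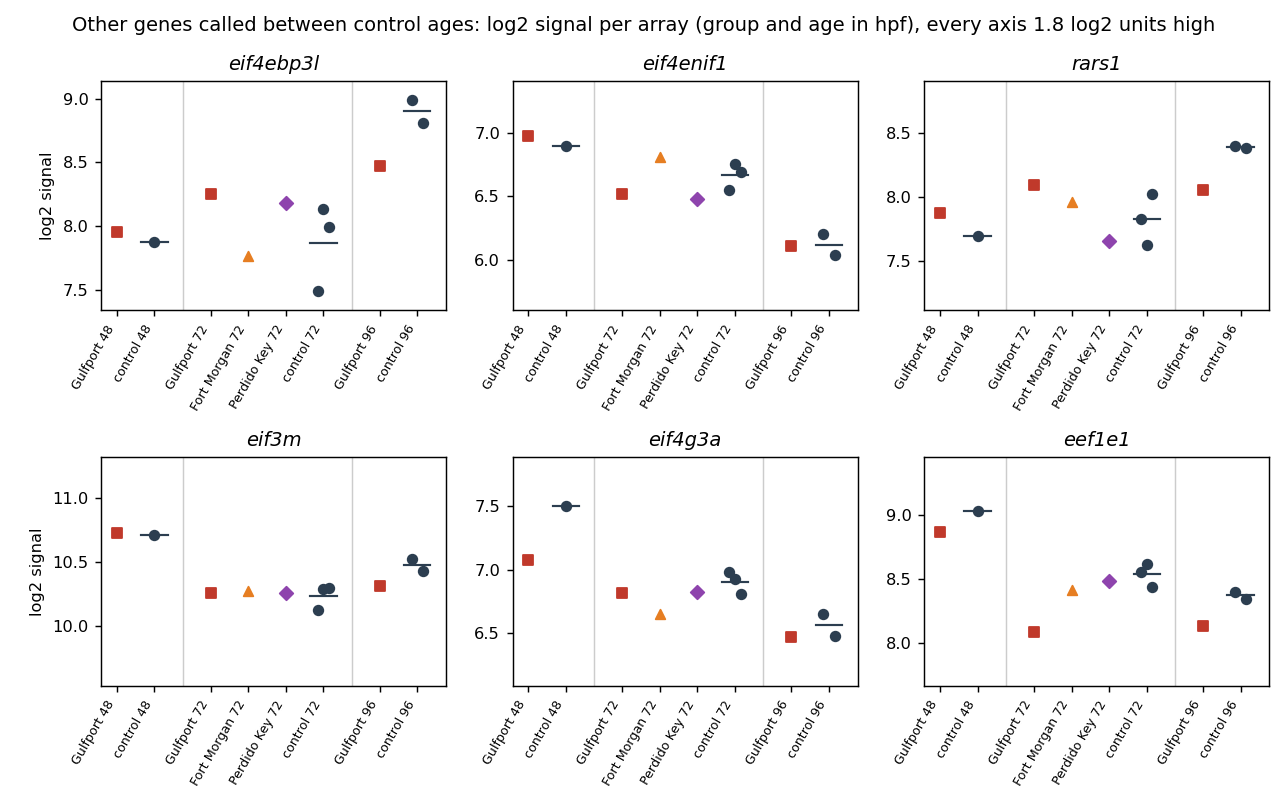
Log2 signal of the other 6 genes called between control ages in each of the 11 arrays, by group and age, with exposed arrays to the left of the controls of their age and bars at control means. Each axis spans the same height; eif4ebp3l and rars1 stand highest in the controls at 96 hpf, eif4enif1 lowest at 96 hpf, and eif3m, eif4g3a and eef1e1 highest at 48 hpf.

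Markers moved over the same steps, and their part in these results was not tested. All 5 markers of dividing cells were lower at 72 than at 48 hpf, and 3 (ccnb1, mcm5 and pcna) were called (8.71% of all probe sets called lower). None passed at the next step. Their list mean was 9.21 in the control at 48 hpf, 8.55 to 8.65 at 72 hpf and 8.31 to 8.50 at 96 hpf. All 6 markers of the exocrine pancreas, a tissue that makes much secreted protein, were higher at each step. At the first step 5 of them were called (9.23% of all called higher) and at the second 6 (6.29% of all). Of 27 tested genes of termination, recycling, poly(A) binding, mitochondrial translation and other synthetase subunits, 1 passed between control ages: rps6ka1, a kinase gene, rose by 0.48 (limma adjusted p 0.0306) between 48 and 72 hpf.

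No member passed when the 3 exposed arrays were set against the 3 controls of that age; the question is what exposure to any of the emulsions changed at this age. The call rate among all probe sets was 0.571%, and 0 of the 76 members had an unadjusted p under 0.05 (limma), against 8.75% of all. Member differences ran from -0.21 (eef1e1) to 0.25 (tars1), and all 95% intervals lay between -0.60 and 0.76. Exposed and control arrays did not overlap for 5 of 76 members, against 13.5% of all probe sets: aars1, eif3ba, eif3ea and eif3s10 lay above every control (6.92% of all) and eif4a3 below every control (6.58% of all). Over all 11 arrays with age as a factor, 0 members were called, against 1.31% of all, and 3 had an unadjusted p under 0.05 (11.4% of all): eef1e1 (-0.21), eif4g3a (-0.18) and eif4a3 (-0.15), with limma adjusted p of 0.325, 0.366 and 0.373.

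Single exposed arrays gave no call among the members either. The count was 0 of 76 for Gulfport at 72 hpf (2.71% of all probe sets), for Fort Morgan and for Perdido Key (0.224% of all in each) and for Gulfport at 96 hpf (0.0918%), with 9, 2, 0 and 3 members at an unadjusted p under 0.05. Of all probe sets, 17%, 6.61%, 4.75% and 4.63% had one in the same order. These tests assume that a lone exposed array varies like the controls, whose 3 residual degrees of freedom carry the fit. None of the probe sets that stood for the members passed in any of these arrays. Among them eef1a1b met the signal filter only at 96 hpf, so no test of it is given. A second probe set of eif5a, which did not stand for its gene, did not pass either in the Gulfport array at 72 hpf (difference -0.60, SE 0.14).

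Both eEF1A genes that were higher at later ages stood low in that array. The gene eef1a1b measured 4.97 with Gulfport, 5.37 with Fort Morgan and 5.47 with Perdido Key emulsion at 72 hpf, against 5.46, 5.48 and 5.46 in the controls. The Gulfport difference was -0.50 (SE 0.12). The gene eef1a1a measured 7.36 with Gulfport, 7.75 with Fort Morgan and 7.92 with Perdido Key emulsion, against 7.57, 7.99 and 7.99 in the controls, a Gulfport difference of -0.49 (SE 0.18; adjusted p 0.218). At 96 hpf the order was not the same: eef1a1b measured 6.70 with Gulfport emulsion, against 6.24 and 6.25 in the controls (0.46, SE 0.13). For eef1a1a the values were 8.95, against 8.89 and 8.90. In the pair at 48 hpf eef1a1b measured 4.80 with Gulfport emulsion and 4.44 in the control. The change in the eef1a1b difference between the windows ending at 96 and 72 hpf was 0.96 (SE 0.18). Since eef1a1b met the signal filter only at 96 hpf, its values there are given without a test.

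Exocrine pancreas markers moved with the same array. All 6 lay below the control mean in the Gulfport array at 72 hpf (5319 of 9803 probe sets did), and 4 were called lower (95 of 9803). The list means of the 3 exposed arrays ran from 6.83 to 7.86, against 8.18 to 8.84 in the controls. The liver markers fabp10a and tfa fell there too, by 0.97 and 0.77. The part of these tissues in the member values was not tested.

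In exposed arrays the cytosolic synthetases lay to one side together, by small amounts, and the side differed between arrays. In the Gulfport array at 72 hpf all 14 lay above the control mean (45.7% of all probe sets), with a median of 0.28 and a range of 0.10 (cars1) to 0.67 (nars1), against a median of -0.02 over all probe sets. With Fort Morgan emulsion all 14 lay above (47% of all; median 0.17), and with Perdido Key emulsion 2 of 14 did (47.9% of all; median -0.11). In the Gulfport array at 96 hpf 1 of 14 lay above the control mean (45% of all, median -0.23). The 76 members as a whole also leaned low there, with 16 above the control mean and 60 below (median -0.10). Above it were 2 of 14 eIF3 genes, 5 of 14 eIF4 genes and 3 of 9 elongation factors. In the Gulfport array of the 48 hpf pair 13 of 14 lay above the single control (52.3% of all; median 0.18, described without a test). None of the 14 was called in any of these arrays (limma), and 5 at Gulfport 72 hpf, 1 at Fort Morgan, 0 at Perdido Key and 2 at Gulfport 96 hpf had an unadjusted p under 0.05.

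The list mean per array shows the spread behind these medians. It was 8.77 with Gulfport, 8.62 with Fort Morgan and 8.32 with Perdido Key emulsion at 72 hpf, against 8.45, 8.34 and 8.51 in the controls. The Gulfport and Fort Morgan arrays lay above all 3 controls and the Perdido Key array just below the lowest. At 96 hpf it was 8.29 with Gulfport emulsion, against 8.53 and 8.54 in the controls, and at 48 hpf 8.66 with Gulfport emulsion and 8.47 in the control. The control SD at 72 hpf was 0.08 (n = 3), and between any pair of controls of 1 age the median synthetase difference lay between -0.12 and 0.05. Replicate controls could lean to one side too. At 72 hpf the second control lay above the third for 2 of 14 synthetases, the count seen with Perdido Key emulsion. The first lay above the second for 9 and above the third for 5. At 96 hpf the first lay above the second for 8 of 14.

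**Figure D4:**
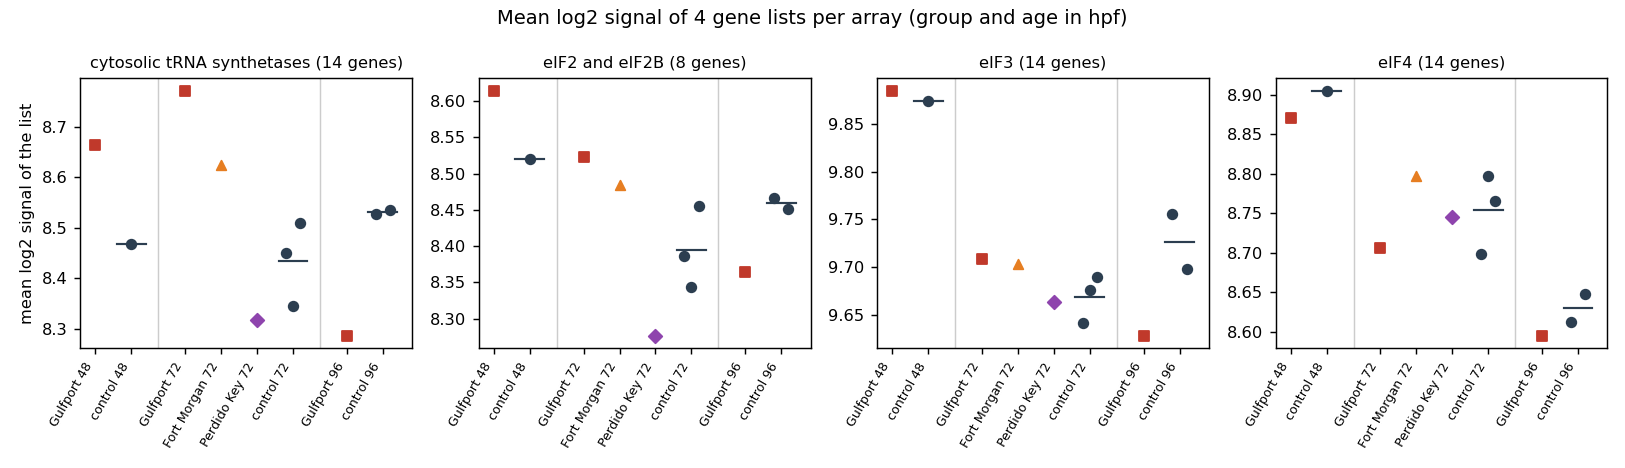
Mean log2 signal of 4 gene lists in each of the 11 arrays, by group and age, with exposed arrays to the left of the controls of their age and bars at control means; each axis has its own scale. The synthetase mean is highest in the Gulfport array at 72 hpf (8.77) and lowest in the Gulfport array at 96 hpf (8.29). The control at 48 hpf stands above the later controls for eIF2 and eIF2B, eIF3 and eIF4.

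Among single genes the largest difference was that of nars1, for asparagine, which measured 10.34 with Gulfport, 9.95 with Fort Morgan and 9.46 with Perdido Key emulsion, against 9.93, 9.39 and 9.70 in the controls at 72 hpf. The Gulfport value lay above all controls, and the controls themselves spread over 0.54. Its Gulfport difference was 0.67 (SE 0.20; 1.59-fold; limma adjusted p 0.134). The gene tars1, for threonine, measured 8.85 with Gulfport, 8.50 with Fort Morgan and 8.20 with Perdido Key emulsion, against 8.45, 8.21 and 8.14 in the controls (Gulfport difference 0.58, SE 0.15; limma adjusted p 0.0977). The gene iars1, for isoleucine, measured 8.30 with Gulfport, 7.89 with Fort Morgan and 7.76 with Perdido Key emulsion, against 7.73, 7.68 and 7.95 in the controls (Gulfport difference 0.51, SE 0.15; limma adjusted p 0.121). At 96 hpf iars1 measured 7.45 with Gulfport emulsion, against 8.02 and 7.94 in the controls (-0.53, SE 0.16; limma adjusted p 0.593), and mars1, for methionine, 6.97, against 7.47 and 7.46 (-0.49, SE 0.14; limma adjusted p 0.588).

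**Figure D5:**
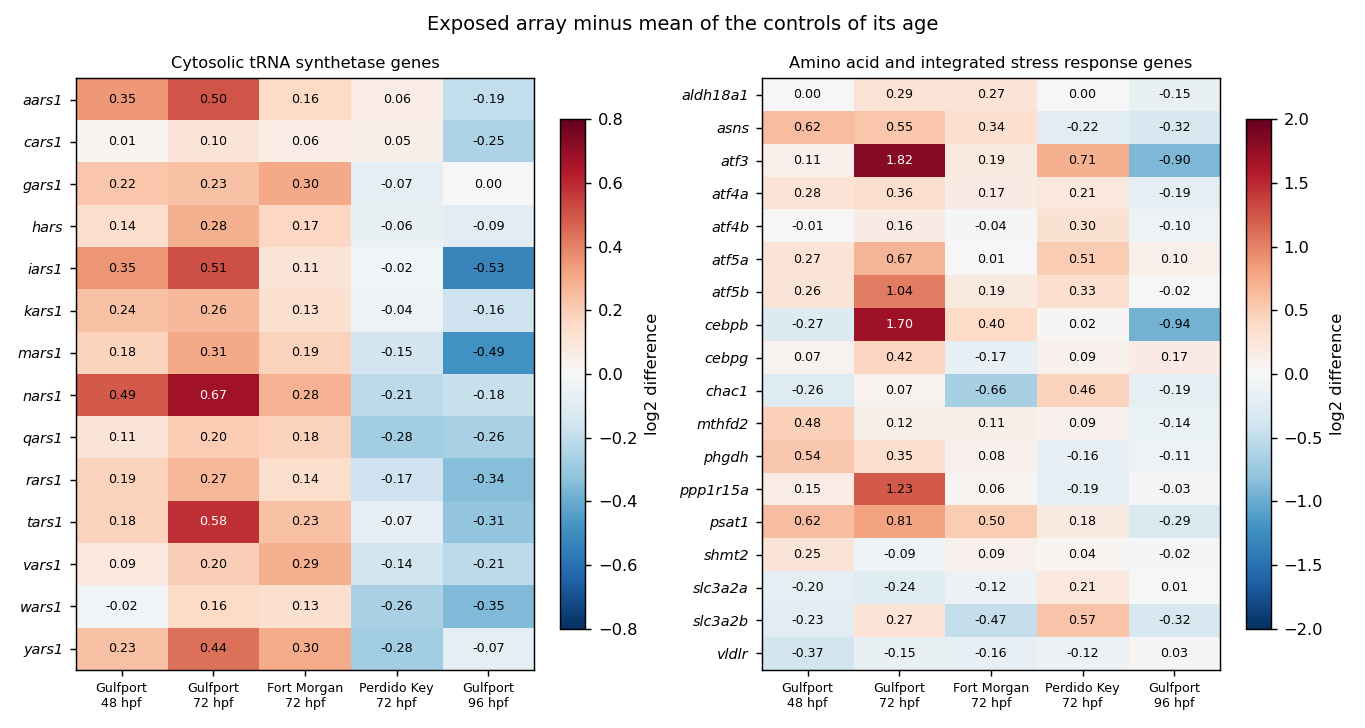
Log2 difference of each exposed array from the mean of the controls of its age, for the 14 cytosolic synthetases (left, colour scale to 0.8) and 18 genes of the amino acid and integrated stress response (right, colour scale to 2). Red cells are higher and blue cells lower in the exposed array; the synthetase columns are mostly red for Gulfport at 48 and 72 hpf and Fort Morgan, and mostly blue for Perdido Key and Gulfport at 96 hpf.

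The array order held for most synthetases. The Gulfport array at 72 hpf lay above every control for 12 of 14, against 26.8% of all probe sets, and the Gulfport array at 96 hpf lay below both controls for 13 of 14, against 37.4% of all. Of the 3 sites, Gulfport was highest for 12 of 14 (32.5% of all) and Perdido Key lowest for 14 of 14 (34.3% of all). No member was called between sites (limma; Gulfport minus Fort Morgan 3, Gulfport minus Perdido Key 13 and Fort Morgan minus Perdido Key 5 of 76 at an unadjusted p under 0.05, against 5.69%, 10.5% and 4.79% of all), and the call rates over all probe sets were 0%, 0.0612% and 0%. The lowest was yars1, for tyrosine, between Gulfport and Perdido Key (0.72, SE 0.16; adjusted p 0.175).

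The Gulfport difference at 96 hpf lay below that at 72 hpf for 14 of 14 synthetases, by 0.23 (gars1) to 1.05 (iars1) with a median of 0.51. It did so for 4915 of 9803 probe sets and for 57 of the 76 members. Among the latter were 13 of 14 eIF3 genes, 7 of 8 of eIF2 and eIF2B and 7 of 14 eIF4 genes. The contrast is made from the 72 and 96 hpf differences already given, so it is not a separate observation. This contrast called 0 of 76 members and 0% of all probe sets (limma), with 10 members, 8 of them synthetases, at an unadjusted p under 0.05, against 9.72% of all. For iars1 the difference between windows was -1.05 (95% interval -1.55 to -0.54; adjusted p 0.191).

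Set against controls of the same lower-quartile set only, the synthetase medians were 0.25 (Gulfport, 72 hpf, 2 controls), 0.14 (Fort Morgan, 2 controls), -0.01 (Perdido Key, 1 control, with 6 of 14 above 0) and -0.24 (Gulfport, 96 hpf, 1 control). The Perdido Key comparison cannot settle its shift. The 1 control of its set had the lowest synthetase list mean of the 3 at 72 hpf (8.34, against 8.45 and 8.51). The split was also chosen after seeing the data. Without any single control the 4 medians, in the same order, stayed within 0.25 to 0.33, 0.14 to 0.23, -0.15 to -0.09 and -0.26 to -0.23.

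Of the other role lists, the 8 genes of eIF2 and eIF2B had medians of the same signs as the synthetases, namely 0.12 for Gulfport at 72 hpf, 0.11 for Fort Morgan, -0.09 for Perdido Key and -0.10 for Gulfport at 96 hpf. The largest was eif2b4, a subunit of the exchange factor, which measured 8.58 with Gulfport, 8.37 with Fort Morgan and 8.07 with Perdido Key emulsion at 72 hpf, against at most 8.27 in the controls. The eIF3 and eIF4 medians lay within 0.10 of 0 in all 5 exposed arrays, and eef1e1 measured 8.09 with Gulfport, 8.41 with Fort Morgan and 8.48 with Perdido Key emulsion, against 8.55, 8.62 and 8.44 in the controls (Gulfport difference -0.45, SE 0.13; limma adjusted p 0.127). With Fort Morgan emulsion the members of largest difference were eif3jb (0.37), eif4a1a (0.31) and gars1 (0.30) above, and eif2ak3 (-0.46), eif4a2 (-0.42) and eif2a (-0.32) below, with limma adjusted p of 0.741 to 0.947. The 2 probe sets of eif4a1a disagreed there, and their average gave -0.13. With Perdido Key emulsion they were eif4ebp3l (0.31), eif4a2 (0.27) and eef2k (0.23) above, and eif2b3 (-0.30), rars2 (-0.29) and yars1 (-0.28) below, all with a limma adjusted p of 1.

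In the 48 hpf pair no member differed by 1 log2 unit, against 0.551% of all probe sets. Those of largest difference were nars1 (10.04 with Gulfport emulsion, 9.55 in the control), eef1a1b and iars1 above, and eif4g3a (7.07 with Gulfport emulsion, 7.50 in the control), eef2k and eif5a below. The other 2 probe sets of eif4g3a differed by 0.11 and -0.02 in that pair. Each value is 1 array against 1 array.

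Related genes of the amino acid and integrated stress response were read on the same arrays, with 18 tested of 30 listed. In the Gulfport array at 72 hpf 15 of 18 lay above the control mean (45.7% of all probe sets; median 0.35). Of the 18, 9 had an unadjusted p under 0.05 (limma; 17% of all), and 2 were called, both higher (2.71% of all called in either direction). The gene ppp1r15a, whose product directs dephosphorylation of eIF2, measured 9.28 with Gulfport, 8.11 with Fort Morgan and 7.86 with Perdido Key emulsion, against 8.09, 8.03 and 8.03 in the controls (Gulfport difference 1.23, SE 0.18; limma adjusted p 0.0168). The gene atf5b, for a transcription factor related to ATF4, measured 7.44 with Gulfport, 6.59 with Fort Morgan and 6.73 with Perdido Key emulsion, against 6.44, 6.60 and 6.16 in the controls (1.04, SE 0.22; limma adjusted p 0.0499). Both Gulfport values stood above all other arrays at that age. The largest Gulfport difference of the list at 72 hpf, 1.82, belonged to another gene, which was not called.

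Among the amino acid enzymes of that list, asns had the sign of the synthetase median in all 5 exposed arrays and psat1 in 4 of 5, and neither passed. The list as a whole went the other way from the synthetases with Perdido Key emulsion. There 14 of its 18 genes lay above the control mean (median 0.13), against 2 of 14 synthetases (median -0.11). With Fort Morgan emulsion 12 of 18 lay above (median 0.09), and with Gulfport emulsion at 48 hpf 11 of 18 lay above the single control (median 0.13). The gene asns, for asparagine synthetase, lay at 0.62 for Gulfport at 48 hpf, 0.55 for Gulfport at 72 hpf (adjusted p 0.0959), 0.34 for Fort Morgan, -0.22 for Perdido Key and -0.32 for Gulfport at 96 hpf. The gene psat1, of serine synthesis, lay at 0.62, 0.81 (adjusted p 0.0524), 0.50, 0.18 and -0.29 in the same order. In controls psat1 and phgdh, also of serine synthesis, fell by 0.75 and 0.49 between 72 and 96 hpf (limma adjusted p 0.0133 and 0.0289). At that step 1 of the 14 synthetases was called, against 9.6% of all probe sets. Of the 5 synthetase subunits and scaffold genes outside the symbol rule, eprs1, for glutamate and proline, lay at 0.29, 0.32, 0.35, -0.10 and -0.29 in the 5 exposed arrays in that order. Of these 5 genes, 4, 4, 5, 1 and 0 lay above the control mean in the same order.

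At 96 hpf, 4 of these 18 stress-response genes lay above the control mean with Gulfport emulsion (45% of all probe sets; median -0.12). The 2 controls of that age stood apart from each other on 2 of the 18. The gene atf3 measured 6.08 with Gulfport emulsion, against 5.96 and 8.02 in the controls, and cebpb 8.02, against 7.85 and 10.08. The synthetase list mean was nearly equal in those controls, at 8.53 and 8.54.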

How the data were processed

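The authors deposited log2 probe set signals for 11 Affymetrix arrays, and per the submitters' processing notes RMA made them. Which program ran RMA is not given in the sources used here. The method gives all arrays nearly the same distribution, so a change in total RNA per embryo is not visible, and it compresses differences of dim probe sets. No detection calls were used.

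Of 15617 probe sets, 115 controls were left out, and the 9803 with log2 of at least 6 in at least 1 array were tested. Symbols came from the platform annotation and all 76 member symbols were found by Entrez identifier in RefSeq. No coordinates or sequences are given.

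Differences were tested with limma 3.58.1 (lmFit, eBayes; R 4.3.3) with Benjamini-Hochberg adjustment at 0.05: control ages over the 6 controls, exposed against control at 72 hpf as 3 against 3, all 11 arrays with age as a factor, and single exposed arrays, sites and windows in a fit with 1 mean per group. The fits were tested on simulated data. Intervals are 95% intervals of the fit. Named genes are the members that passed, up to 12 per direction, filled up to 3 by size of difference, plus the extremes of each role list and all eef1a, eef2, eif4ebp and eif2ak genes. Members and lists, and the tests and alternatives, were chosen with earlier results of these data known. Control replicate numbers were not taken as pairs, since the labels do not say that equal numbers mark a shared cup or spawning. Deviations of same-numbered controls correlated at -0.05 and -0.06. With 2 controls at 96 hpf their deviations mirror each other, so these correlations cannot settle the question. Figures used Python 3.11.15, matplotlib 3.10.9 and pandas 2.3.3.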

Additional observations from a re-analysis of the deposited data

How the results depend on the processing

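Alternatives were the signal filter, centring of arrays, a variance trend with robust moderation, averaged probe sets, another fit or a block, and leaving out each array. No exposure comparison called a member under any alternative run, and eef1a1a was called between control ages under every one. With a filter at log2 7, which removes eef1a1b and eif4enif1, 3 members were called between 72 and 96 hpf in place of 5. Without 1 array, 2 to 4 members were called between 48 and 72 hpf, 2 to 5 between 72 and 96 hpf and 0 in each exposure comparison.

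Counts over all probe sets moved more. With a trend and robust moderation they were 41 for Fort Morgan, 36 for Perdido Key and 26 for Gulfport at 96 hpf, against 22, 22 and 9. Gulfport at 96 hpf had 18 without a filter and 15 with centred arrays. The fit with 1 mean per group gave 129 calls for exposed against control at 72 hpf, against 56. Without 1 array the counts ran from 1240 to 1529 (72 minus 48 hpf), 382 to 941 (96 minus 72 hpf), 23 to 83 (exposed at 72 hpf), 81 to 124 (over ages), 100 to 320 (Gulfport, 72 hpf), 12 to 22 (Fort Morgan), 17 to 22 (Perdido Key) and 5 to 14 (Gulfport, 96 hpf). The Perdido Key synthetase median was -0.011 against controls of its own lower-quartile set, an alternative chosen after seeing the data.

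Some signs turned. Between 96 and 72 hpf, eif4ebp2 was -0.0067 with centred arrays, and a replicate block over control replicates 1 and 2 gave -0.050 for eif4a2, -0.057 for eif4ebp2, 0.025 for rars2 and 0.13 for wars2. That block lost the call of eif4enif1 (-0.53, limma adjusted p 0.0688). Whether same-numbered controls share a cup or spawning is not known. With probe sets averaged, eif4a1a was -0.13 for Fort Morgan, against 0.31, since its 2 probe sets disagreed. Leaving out 1 control gave ranges across 0 between 72 and 48 hpf for eef2b (-0.022 to 0.0053), eif2b4 (-0.0091 to 0.13), eif4ebp2 (-0.089 to 0.020), eif4ebp3l (-0.13 to 0.19) and wars2 (-0.28 to 0.018), and between 96 and 72 hpf for eif2s1a (-0.064 to 0.021), eef2k (-0.31 to 0.021), eif4a2 (-0.050 to 0.22), eif4ebp2 (-0.057 to 0.052), rars2 (-0.077 to 0.025), eif3eb (-0.23 to 0.052) and wars2 (-0.17 to 0.13). The cause of these changes was not tested beyond the fewer arrays or probe sets each setting leaves. With 1 array per exposed group and 3 residual degrees of freedom, differences of the size seen for the synthetases could not be settled.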

Other observations

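The second probe set of eif4a1a, for the helicase of the cap-binding complex, measured 7.62 in the Gulfport array at 96 hpf, against 7.35 and 9.76 in the controls of that age, and 8.71, 8.18 and 8.19 in the exposed arrays at 72 hpf, against 9.16, 8.65 and 8.45 in the controls. The probe set of higher mean measured 10.37 at 96 hpf with Gulfport emulsion, against 10.53 and 10.12. The pair of probe sets thus ordered the controls at 96 hpf in opposite ways, and the second control, which was high on the dimmer one, is also the one with the high atf3 and cebpb signals.

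Other genes of translation outside the symbol rule were not called in any exposed array. Among them pabpc4, for a poly(A)-binding protein, lay at -0.54 and aimp1a, for a scaffold of the synthetase complex, at -0.40 in the Gulfport array at 96 hpf, where all 5 subunit and scaffold genes and all 5 mitochondrial translation factors tested lay below the control mean.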
